A study of Rattus norvegicus with 4 samples.

Results

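The rat miRNAs rno-miR-33, rno-miR-378, rno-miR-103, rno-miR-107 and rno-miR-802, written below without the species prefix, were followed through small RNA libraries of liver labelled hepatic fibrosis and of liver labelled normal. They were chosen by name, as 5 of the 680 rat miRNA names listed, because each lies in or acts on genes of cholesterol, mitochondrial or insulin metabolism, and only the names without an asterisk (the major arm of the precursor in the older naming style) were taken. The labels give 2 samples of fibrosis and 2 of normal liver and nothing beyond the tissue. The sources used here do not give how the fibrosis was induced, the strain, the age or whether the samples came from separate animals. Fibrosis replicate 2 and normal replicate 2 had 0 differing values over the 680 names, and they were counted as 1 library, called the duplicated library, which carries a label of each group. The comparison of fibrosis with normal tissue therefore rests on fibrosis replicate 1 and normal replicate 1, with 1 library on each side, and the values below describe these libraries and not the conditions.

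A miRNA is a short RNA that pairs with messenger RNAs, chiefly through its seed (bases 2 to 8), and represses them. Several miRNAs of metabolism are encoded inside genes of the pathway they act on. miR-33 lies in an intron of Srebf2, the transcription factor that switches on cholesterol synthesis and uptake, and represses Abca1, the pump that exports cholesterol from cells. miR-378 lies in Ppargc1b, a coactivator of mitochondrial biogenesis and fat oxidation, and in mice it represses Crat, which acts in oxidative metabolism. miR-103 and miR-107 lie in the pantothenate kinase genes, whose products carry out the first step of coenzyme A synthesis, and in mice they lower insulin sensitivity through Cav1. miR-802 is raised in the liver of obese mice and impairs their glucose tolerance.

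The mature sequences show which members can share targets and which can share reads, and 4 of the 5 members matched an entry of the RefSeq miRNA table (build GRCr8). They are written 5′ to 3′ with the seed in capitals.
miR-33: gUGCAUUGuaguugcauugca
miR-378: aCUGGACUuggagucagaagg
miR-103: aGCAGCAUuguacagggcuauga
miR-107: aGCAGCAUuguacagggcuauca
miR-802 is named only. The older names were taken as the 5p arm for miR-33 and as the 3p arm for miR-378, miR-103 and miR-107. miR-103 and miR-107 have the same seed and differ by 1 base of 23, G22C (miR-103 base first, counted from the 5′ end). A read that ends before base 22 cannot be given to one of them, and the sources used here do not give the rule by which the authors assigned such reads. No other mature miRNA of the 724 in the table has the seed of miR-103 and miR-107, and 0 others have the seed of miR-33 or of miR-378.

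In the GRCr8 annotation Mir33 lies on chromosome 7 within Srebf2, Mir378 on chromosome 18 within Ppargc1b and Mir107 on chromosome 1 within Pank1, each on the strand of its host. miR-103 has 2 precursors, Mir103a1 on chromosome 10 within Pank3 and Mir103a2 on chromosome 3 within Pank2, and both hairpins hold the mature sequence printed above. The level of miR-103 is therefore the sum of what both loci give. Mir802 lies on chromosome 11 within a lncRNA gene that has a locus number only. The submitters' processing notes name the older build rn5, so no coordinates are given.

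Values are reads per 1000000 reads (RPM). The scaling totals were inferred from the spacing of the values. They were 6951148 reads in fibrosis replicate 1, 6357069 in the duplicated library and 7070374 in normal replicate 1. The recovered reads on listed miRNAs came to 50.5% to 52.5% of these totals. A read counted for several miRNAs would enter this share more than once. A count of 0 allows up to 0.432, 0.472 and 0.424 RPM in these libraries. The hepatocyte markers miR-122, miR-192 and miR-194 together stood at 251792, 255470 and 272148 RPM, so all 3 libraries carry the labelled tissue's defining miRNAs. The 5 mesenchymal markers (miR-199a-3p, miR-199a-5p, miR-214, miR-143 and miR-145) summed to 669 RPM in fibrosis replicate 1, 1009 RPM in the duplicated library and 466 RPM in normal replicate 1, most of it miR-199a-3p. The 5 leukocyte markers (miR-142-5p, miR-142-3p, miR-223, miR-150 and miR-146b) summed to 75.5, 92.8 and 37.2 RPM in the same order. The erythroid pair miR-451 and miR-144 summed to 2.88, 2.05 and 7.78 RPM, the endothelial pair miR-126 and miR-126* to 7.77, 10.9 and 6.51 RPM, and the 6 striated muscle markers to 19.7, 38.2 and 28.3 RPM, nearly all miR-499 and miR-1, with miR-133a and miR-133b at 0 in the first 2 of these libraries and miR-208 at 0 in all 3. In whole tissue, fewer cells of a type and less of a miRNA per cell cannot be told apart.

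The 5 members fell into 3 levels. miR-103, miR-107 and miR-378 stood between 283 and 595 RPM, miR-33 between 7.92 and 14.2 RPM and miR-802 between 0.629 and 1.27 RPM, and the 3 levels did not overlap between any libraries. A read of a miRNA is a whole molecule of nearly the same length, so RPM can be set side by side without scaling by length, although ligation favours some ends and was not measured. By rank among the listed names in a library, miR-103 stood 14th, 19th and 15th in fibrosis replicate 1, the duplicated library and normal replicate 1, miR-107 stood 18th in each, and miR-378 stood 19th, 22nd and 19th. miR-33 stood 67th, 65th and 81st, and miR-802 stood 144th, 152nd and 139th. All 5 are small next to miR-122, the main hepatocyte miRNA: miR-103, the highest of them in fibrosis replicate 1, held 0.118% of its miRNA reads and miR-802 held 0.000200%.

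**Figure D1:**
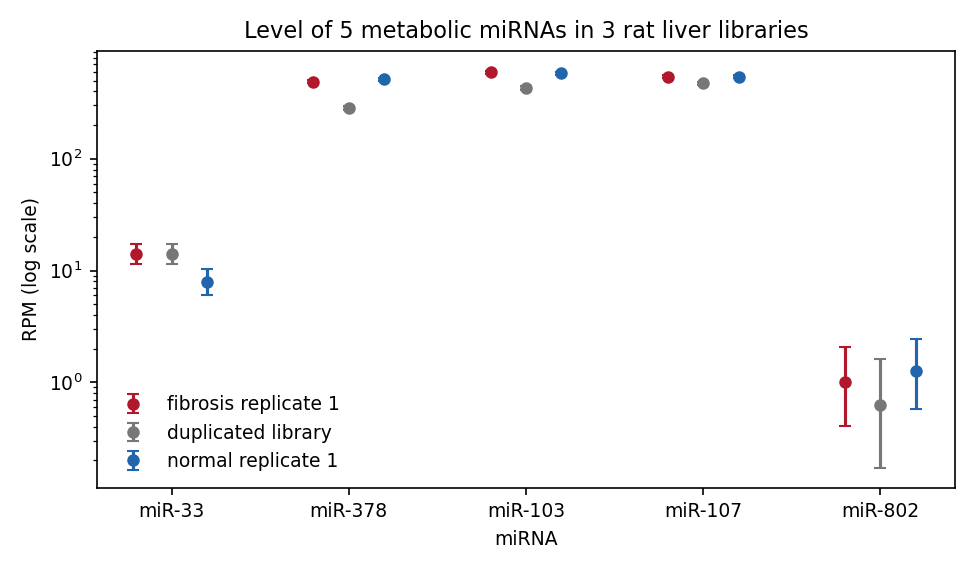
The level of each miRNA (RPM, log scale) is plotted for fibrosis replicate 1 (red), the duplicated library (grey) and normal replicate 1 (blue), with 95% exact Poisson intervals that cover counting error only. miR-33 is at 14.1 and 14.2 RPM in fibrosis replicate 1 and the duplicated library and at 7.92 RPM in normal replicate 1, while miR-378, miR-103 and miR-107 are lowest in the duplicated library.

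miR-33, the repressor of cholesterol export, was the only member that differed by 1.5-fold between fibrosis replicate 1 and normal replicate 1. It had 98 reads, or 14.1 RPM (95% exact Poisson interval 11.4 to 17.2), in fibrosis replicate 1, 90 reads, or 14.2 RPM (11.4 to 17.4), in the duplicated library and 56 reads, or 7.92 RPM (5.98 to 10.3), in normal replicate 1. Fibrosis replicate 1 and the duplicated library thus lay together, and normal replicate 1 lay below both with an interval that did not overlap theirs. Fibrosis replicate 1 over normal replicate 1 gave a ratio of 1.78 (95% exact binomial counting interval 1.27 to 2.52), and the duplicated library over normal replicate 1 gave 1.79 (1.27 to 2.54). The ratio of fibrosis replicate 1 to the duplicated library was 0.996 (0.740 to 1.34), so without normal replicate 1 no difference was detectable at this depth. The summed mesenchymal, leukocyte and endothelial markers given above were also lowest in normal replicate 1. So were 2 of the 5 mesenchymal, 4 of the 5 leukocyte and both endothelial markers singly. The remaining mesenchymal markers (miR-199a-5p, miR-143 and miR-145) and the remaining leukocyte marker (miR-142-3p) were instead highest in normal replicate 1. The mesenchymal sum thus follows miR-199a-3p and not most of its list. The part of these markers in the miR-33 values was not tested. The hepatocyte marker sum was highest in normal replicate 1.

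Among the 76 miRNAs that averaged 10 RPM or more in fibrosis replicate 1 and normal replicate 1, 6.58% were at least 1.5-fold higher in fibrosis replicate 1 and 1.32% at least 1.5-fold lower. Of the 4 members above that minimum, 1 was higher (miR-33, the third highest ratio, with 2 miRNAs above it) and 0 were lower. The background split of 5 higher and 1 lower was 8 and 0 with TMM or DESeq2 size factors, 8 and 1 when scaled to the reads on listed miRNAs, 4 and 2 when miR-122 was left out of that total and 4 and 3 with upper-quartile scaling. miR-33 stayed past 1.5-fold under each of these 5 scalings, between 1.69 and 1.87. Its mean lies just above the minimum of 10 RPM. It passed only through fibrosis replicate 1, at 14.1 RPM, because normal replicate 1 lay below the minimum at 7.92 RPM. A minimum on the mean of a pair admits a low miRNA through its higher library. The place of miR-33 in this ranking is therefore no support for a difference. The same holds for its place among members past 1.5-fold in the duplicated library over normal replicate 1.

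miR-378, carried in the gene of the mitochondrial coactivator Ppargc1b, stood at 488 RPM (471 to 504) in fibrosis replicate 1, 283 RPM (270.1 to 296) in the duplicated library and 511 RPM (494 to 528) in normal replicate 1. The 2 libraries with a single label lay close together, and the duplicated library lay far below both. Fibrosis replicate 1 over normal replicate 1 gave a ratio of 0.954 (0.910 to 1.0002), whose interval just included 1. The duplicated library over normal replicate 1 gave 0.554 (0.523 to 0.586), and fibrosis replicate 1 over the duplicated library gave 1.72 (1.63 to 1.83). These 2 ratios lie on opposite sides of 1, so the direction for miR-378 depends on which label of the duplicated library is followed. With the highest library at 1.81 times the lowest, miR-378 had one of the wider ranges among the 73 miRNAs that averaged 10 RPM or more in the 3 libraries, whose median range was 1.37-fold, and 10 of them were wider. In the duplicated library the mesenchymal, leukocyte, endothelial and striated muscle sums were the highest of the 3 libraries and the erythroid sum was the lowest. Singly, 2 of the 3 hepatocyte markers (miR-192 and miR-194) and 2 of the 5 mesenchymal markers (miR-199a-5p and miR-145) were lowest there, and the hepatocyte sum was not. Their part in the lower miR-378, miR-103 and miR-107 of that library was not tested.

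The pantothenate kinase miRNAs miR-103 and miR-107 were nearly even between the 2 libraries with a single label. In the deposited scaling they were more even than miR-378, whereas with TMM miR-378 was the nearest to 1, at 0.9998 beside 1.07 for miR-103 and 1.04 for miR-107, and likewise with DESeq2 size factors, at 0.998 beside 1.07 and 1.04. miR-103 stood at 595 RPM (577 to 613) in fibrosis replicate 1, 430.1 RPM (414 to 447) in the duplicated library and 584 RPM (566 to 602) in normal replicate 1. miR-107 stood at 539 RPM (522 to 556) in fibrosis replicate 1, 471 RPM (455 to 488) in the duplicated library and 541 RPM (524 to 559) in normal replicate 1. In both, fibrosis replicate 1 and normal replicate 1 had overlapping intervals and the duplicated library lay below them. Fibrosis replicate 1 over normal replicate 1 gave 1.02 (0.976 to 1.06) for miR-103 and 0.995 (0.951 to 1.04) for miR-107. These intervals leave room for a difference of a few percent either way in these libraries and say nothing of the spread between animals. Of the 76 miRNAs, 75 had a larger difference in either direction than miR-107 and 71 a larger one than miR-103.

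Set against the duplicated library, the miR-103 difference was larger than that of miR-107. The duplicated library over normal replicate 1 gave 0.737 (0.702 to 0.774) for miR-103 and 0.870 (0.830 to 0.913) for miR-107. Fibrosis replicate 1 over the duplicated library gave 1.38 (1.32 to 1.45) for miR-103 and 1.14 (1.09 to 1.20) for miR-107. Since G22C is the only base that separates them, reads may have been moved from one to the other, which their sum would not show, although reads dropped or counted for both would change it. The sum was 1134 RPM in fibrosis replicate 1, 901 RPM in the duplicated library and 1125 RPM in normal replicate 1. The summed reads of fibrosis replicate 1 over normal replicate 1 gave 1.01 (0.977 to 1.04), and those of the duplicated library over normal replicate 1 gave 0.801 (0.774 to 0.829).

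The balance between miR-103 and miR-107 also changed sides. In fibrosis replicate 1 miR-103 took 52.5% of their joint reads (95% exact binomial interval 51.4 to 53.6), and it took 47.7% in the duplicated library (46.4 to 49.02), against 51.9% in normal replicate 1 (50.8 to 53.0). It exceeded miR-107 in fibrosis replicate 1 and normal replicate 1, whose intervals overlapped, and fell short of it in the duplicated library. The order of the 5 members was otherwise the same in the 3 libraries. miR-103, miR-107 and miR-378 overlapped in their ranges over the libraries, so the order among these 3 is within the spread between libraries, and in normal replicate 1 the counting intervals of miR-107 and miR-378 overlapped as well. The steps from miR-378 to miR-33 (20.0-fold in the duplicated library and 64.5-fold in normal replicate 1) and from miR-33 to miR-802 (22.5-fold in the duplicated library and 6.22-fold in normal replicate 1) were beyond that spread.

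**Figure D2:**
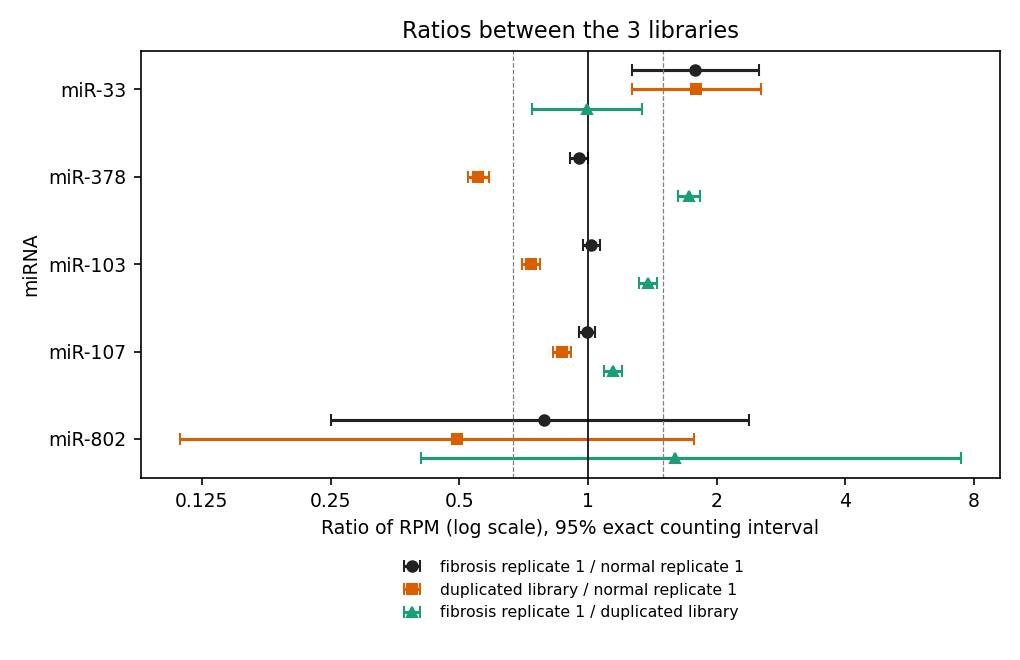
Ratios of RPM between the 3 libraries (horizontal log axis) are plotted for each miRNA with 95% exact binomial counting intervals, the solid line marking 1 and the dashed lines 1.5-fold either way. miR-33 is high in both ratios over normal replicate 1 (1.78 and 1.79), whereas miR-378 is at 0.954 in one and 0.554 in the other, and the intervals of miR-802 all include 1.

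miR-802, the miRNA raised in obese mouse liver, was near the limit of these libraries. It had 7 reads in fibrosis replicate 1, 4 in the duplicated library and 9 in normal replicate 1, which is 1.01 RPM (0.405 to 2.07), 0.629 RPM (0.171 to 1.61) and 1.27 RPM (0.582 to 2.42). All 3 intervals overlapped. Fibrosis replicate 1 over normal replicate 1 gave 0.791 with an interval of 0.250 to 2.39, so a difference of 2-fold in either direction was not detectable at this depth.

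The other arm of the same precursor, miR-802*, was read more often than miR-802 in each library. It had 18 reads (2.59 RPM) in fibrosis replicate 1, 15 (2.36 RPM) in the duplicated library and 21 (2.97 RPM) in normal replicate 1. In fibrosis replicate 1 the starred arm took 72.0% of the reads of both arms (95% exact binomial interval 50.6 to 87.9), and it took 78.9% in the duplicated library (54.4 to 93.9) and 70.0% in normal replicate 1 (50.6 to 85.3). Each interval lay above an even split, which goes against the asterisk as the mark of the minor arm. Of the 87 names that also have a starred row of exactly the same stem and at least 10 reads over both arms and the 3 libraries, 12 had more reads on the starred arm in every library, miR-802 among them.

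In the other members the unstarred arm held nearly all reads. miR-378*, the 5p arm, had 0 reads in fibrosis replicate 1, 3 in the duplicated library and 2 in normal replicate 1, beside 3389, 1799 and 3613 reads of miR-378. miR-33* had 0, 3 and 0 reads in the same order. miR-103-1*, miR-103-2* and miR-107* had 0 reads in all 3 libraries. For miR-103 that is 0 of 10996 reads over the libraries, which allows a starred share of up to 0.0273%, and for miR-107 it is 0 of 10569, which allows up to 0.0284%.

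Across many miRNAs, 2 fits were made, each with the duplicated library counted once, and neither called a member. With it counted as fibrosis, limma on log2(RPM + 1) called 0 of 294 miRNAs at an adjusted p under 0.05 (0% of those tested, with 36 at an unadjusted p under 0.05), and the log2 difference of fibrosis minus normal was 0.76 for miR-33 (SE 0.16, limma adjusted p = 0.392). It was -0.46 for miR-378 (SE 0.50), -0.21 for miR-103 (SE 0.31), -0.10 for miR-107 (SE 0.15) and -0.33 for miR-802 (SE 0.24), with limma adjusted p-values from 0.723 to 0.758. With it counted as normal, limma called 0 of 294 (0%, with 27 at an unadjusted p under 0.05), and the differences were 0.38 for miR-33 (SE 0.52), 0.36 for miR-378 (SE 0.55), 0.25 for miR-103 (SE 0.29), 0.09 for miR-107 (SE 0.16) and 0.06 for miR-802 (SE 0.35), with limma adjusted p-values from 0.891 to 0.962. The sign of miR-378, miR-103, miR-107 and miR-802 turned with the label, and that of miR-33 did not.

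Both fits have 1 residual degree of freedom, and the spread within the group of 2 libraries had to stand for the group of 1. The fits share fibrosis replicate 1 and normal replicate 1, so they are not independent of each other. Restricted to the 148 miRNAs that averaged 1 RPM or more, which leaves out miR-802, the SE of miR-33 was 0.30 with the duplicated library as fibrosis (limma adjusted p = 0.843) and 0.49 with it as normal (limma adjusted p = 0.986), with 0% called in each and 7 and 0 at an unadjusted p under 0.05. edgeR's quasi-likelihood test on the whole reads recovered from the RPM called 0 of 294 in both layouts (0%), with 9 at an unadjusted p under 0.05 when the duplicated library was counted as fibrosis and 1 when it was counted as normal. For miR-33 the edgeR adjusted p was 0.843 and 0.989 in these layouts. DESeq2 called 1 miRNA, which was no member (miR-146b), with the duplicated library as fibrosis and 0 with it as normal, with 4 and 0 at an unadjusted p under 0.05.

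The ratios against the duplicated library show the background in which the member values stand. Over 73 miRNAs, 11% were at least 1.5-fold higher and 16.4% at least 1.5-fold lower in the duplicated library than in normal replicate 1, and of the 4 members above the minimum 1 was higher (miR-33) and 1 lower (miR-378). Over 72 miRNAs, 12.5% were at least 1.5-fold higher and 6.94% at least 1.5-fold lower in fibrosis replicate 1 than in the duplicated library, and of the same 4 members 1 was higher (miR-378, with 2 miRNAs above it) and 0 lower. The median difference in either direction was 1.18-fold between fibrosis replicate 1 and normal replicate 1, 1.26-fold between the duplicated library and normal replicate 1 and 1.22-fold between fibrosis replicate 1 and the duplicated library. Counting intervals lay above 1 for 23.7% of the 76 miRNAs between fibrosis replicate 1 and normal replicate 1 and below 1 for 34.2%, beside 1 (miR-33) and 0 of the 4 members. Between the duplicated library and normal replicate 1 they lay above 1 for 34.2% of the 73 and below 1 for 38.4%, beside 1 (miR-33) and 3 of the 4 members. In these comparisons with normal replicate 1, where it stood at 7.92 RPM, miR-33 passed the minimum of 10 RPM only through the other library. Its place in these interval counts is therefore no support for a difference either. Between fibrosis replicate 1 and the duplicated library they lay above 1 for 34.7% of the 72 and below 1 for 33.3%, beside 3 (miR-378, miR-103 and miR-107) and 0 of the 4 members.

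**Figure D3:**
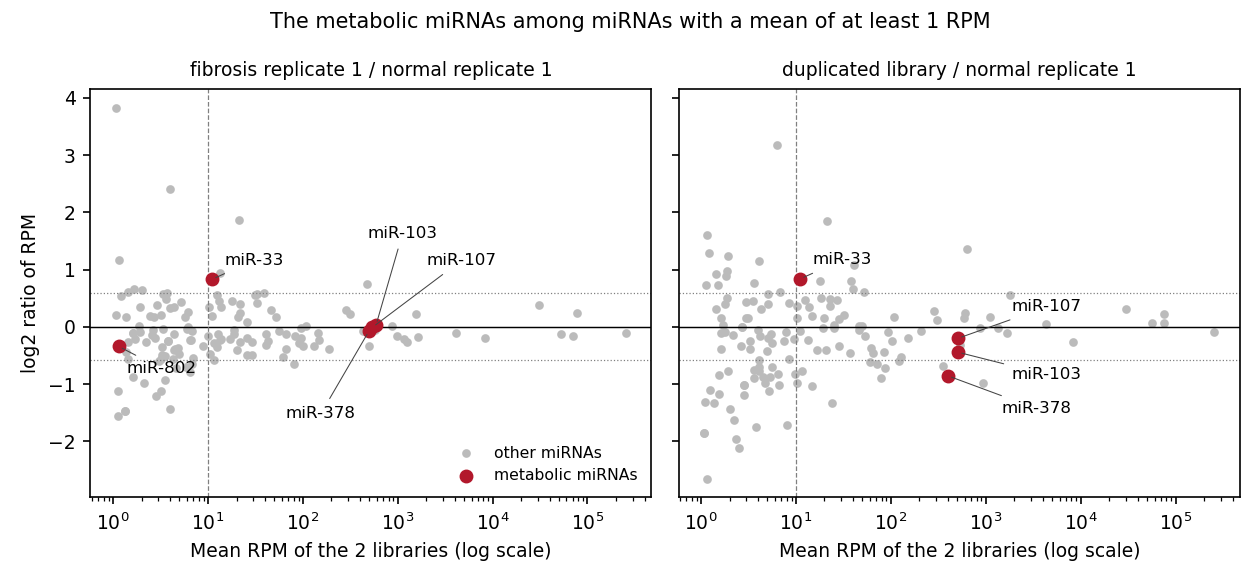
The log2 ratio of RPM is plotted against the mean RPM of the 2 libraries (log scale) for fibrosis replicate 1 over normal replicate 1 (left) and for the duplicated library over normal replicate 1 (right), with the metabolic miRNAs in red, dotted lines at 1.5-fold and a dashed line at 10 RPM. On the left miR-378, miR-103 and miR-107 lie near 0 and miR-33 lies at 0.83, and on the right miR-378 lies at -0.85. miR-802 is left out on the right, where its mean is under 1 RPM.

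The miRNAs with the most similar profile were taken as those with the smallest Euclidean distance in the log2 ratios of fibrosis replicate 1 and of the duplicated library to normal replicate 1, among 72 others that averaged 10 RPM or more. Only 3 libraries stand behind each profile, so likeness is a description. Nearest to miR-33 were miR-532-5p (distance 0.30), at 46.5, 48.8 and 30.8 RPM in fibrosis replicate 1, the duplicated library and normal replicate 1, and miR-142-5p (0.35), a miRNA of blood cells, at 39.4, 56.0 and 26.4 RPM. Nearest to miR-378 were miR-10a-5p (0.14), at 89.9, 55.2 and 103 RPM, and miR-29b (0.15), a repressor of collagen genes, at 12.7, 8.49 and 14.6 RPM. Nearest to miR-103 were miR-185 (0.04) and miR-674-5p (0.09), and nearest to miR-107 were miR-340-5p (0.08) and miR-191 (0.13), all 4 lowest in the duplicated library.

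A list of 25 other miRNAs linked to lipid or glucose metabolism was set beside the members, of which 23 were detected and 10 averaged 10 RPM or more in fibrosis replicate 1 and normal replicate 1. Of these 10, 0 were at least 1.5-fold higher and 1 was at least 1.5-fold lower in fibrosis replicate 1, beside 6.58% and 1.32% of all 76. For 1 of the 10 the counting interval lay above 1 and for 5 it lay below, beside 23.7% and 34.2% of the 76. The median ratio was 0.938 against 0.926 over all 76. Below that minimum, and named after its value was seen, miR-27a stood at 6.76 RPM (47 reads) in fibrosis replicate 1, 11.5 RPM (73 reads) in the duplicated library and 1.27 RPM (9 reads) in normal replicate 1, a ratio of fibrosis replicate 1 over normal replicate 1 of 5.31 (2.57 to 12.3) and the largest difference on the list among those read in both. The highest of the 10 was miR-27b, which in human cells represses lipid genes, at 20.6 RPM in fibrosis replicate 1, 21.4 RPM in the duplicated library and 15.0 RPM in normal replicate 1 (fibrosis replicate 1 over normal replicate 1 gave 1.37, 1.06 to 1.78). The lowest of the 10 was miR-143, which in obese mice impairs insulin signalling and is also a smooth muscle marker, at 62.1 RPM in fibrosis replicate 1, 91.2 RPM in the duplicated library and 97.3 RPM in normal replicate 1 (0.639, 0.565 to 0.721). miR-122, which sustains cholesterol and fatty acid synthesis in mouse liver, had a ratio of 0.927 (0.925 to 0.929). miR-370 and miR-758, both linked to lipid genes, had 0 reads in all 3 libraries.

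Bases 1 to 7 of miR-103 and miR-107 equal the seed of the miR-15 and miR-16 family, set off by 1 base, as the sequences of 3 members show with the seed in capitals.
miR-15b: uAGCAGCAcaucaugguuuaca
miR-16: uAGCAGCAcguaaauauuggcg
miR-195: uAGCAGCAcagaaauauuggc
This held for 5 of the 6 miRNAs on a list of such relatives (miR-15b, miR-16, miR-195, miR-497 and miR-322), and not for miR-503, whose seed ends in another base. Of the 4 on the list that averaged 10 RPM or more, 1 was at least 1.5-fold higher and 0 were at least 1.5-fold lower in fibrosis replicate 1 than in normal replicate 1. The shares over the 76 miRNAs were 6.58% and 1.32%, and the median ratio of the 4 was 0.869. The 1 that was higher was miR-503, which lacks the offset seed. It passed the minimum only through fibrosis replicate 1, so its ratio is no support for a difference. The lowest was miR-16, a repressor of cell cycle genes, at 57.3 RPM in fibrosis replicate 1, 54.9 RPM in the duplicated library and 74.8 RPM in normal replicate 1 (0.765, 0.670 to 0.873), and the highest was miR-503 at 17.4, 11.6 and 9.05 RPM (1.92, 1.41 to 2.65). miR-103 and miR-107 together, at 1134 RPM in fibrosis replicate 1, were far more abundant than any of these relatives.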

How the data were processed

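Per the labels' protocols, total RNA of rat liver went into Illumina small RNA libraries. CASAVA 1.4 and build rn5 are named in the submitters' processing notes. The sources used here give neither the aligner, nor the miRNA annotation, nor how reads matching several miRNAs were counted. The authors deposited 4 files of RPM values for 680 names. Each value was a multiple of 1 fixed step (0.1439, 0.1573 and 0.1414 RPM in fibrosis replicate 1, the duplicated library and normal replicate 1), and 100% of the values above 0 came out as whole reads within 0.01 reads. The header of normal replicate 2 is not its sample title.

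Ratios carry exact (Clopper-Pearson) binomial intervals and levels exact Poisson intervals, which cover counting error only: without molecular identifiers, reads can be copies of 1 molecule. A count of 0 was read as up to 3 reads. limma 3.58.1 was run on log2(RPM + 1), which understates the change of low miRNAs, over the 294 miRNAs above 0 in any library, with Benjamini-Hochberg adjustment. The recovered reads were tested with edgeR 4.0.16 and DESeq2 1.42.0 (R 4.3.3). The p-values measure only the spread between these libraries, which may be technical. A limma fit over miRNAs that averaged 1 RPM or more is given beside the one over all 294. Both fits were also run on simulated data, whose outcome is not reported here and is not used as support for either fit. Other steps used Python 3.11.15, pandas 2.3.3 and scipy 1.17.1. Mature sequences came from RefSeq (GRCr8).

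The members and lists were chosen with earlier results of these data known. Named beside the members are their starred arms, the 2 most similar profiles for each member that averaged 10 RPM or more, and miR-122 and the highest and lowest of each list. Cell type markers are named from their lists. miR-27a, miR-146b, miR-138, miR-370 and miR-758, and the relatives miR-15b, miR-195, miR-497 and miR-322 of miR-16, were named outside that rule, after their values were seen.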

Additional observations from a re-analysis of the deposited data

How the results depend on the processing

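Leaving out a library, which puts the duplicated library in its place under its own label, moved the ratios of fibrosis to normal most: from 0.996 to 1.79 for miR-33, from 0.554 to 1.72 for miR-378, from 0.737 to 1.38 for miR-103, from 0.870 to 1.14 for miR-107 and from 0.494 to 1.60 for miR-802. The 0.996 of miR-33, the only value past 1.5-fold that turned, came without normal replicate 1. Without a library, 14 to 20 miRNAs were past 1.5-fold, against 6 in fibrosis replicate 1 over normal replicate 1. That count was 28 at a mean of at least 1 RPM, 1 at a mean of at least 100 RPM and 1 at 2-fold. Scaling moved the ratios of miR-103 and miR-107 across 1, while that of miR-378 stayed below it: miR-103 was at 1.07 with TMM, 1.07 with DESeq2 size factors and 0.970 with upper-quartile scaling, miR-107 at 1.04 with TMM and 0.947 with upper-quartile scaling, and miR-378 at 0.9998 with TMM, 0.998 with DESeq2 size factors and 0.908 with upper-quartile scaling. In the duplicated library 2 members, miR-103 and miR-107, were out of the abundance order of fibrosis replicate 1. With no filter on low values limma called 1 miRNA with the duplicated library as fibrosis (miR-27a) and 1 with it as normal (miR-138), and DESeq2 called 1 with it as fibrosis (miR-146b). These names were chosen after their values were seen. Of 73 alternative values, 51 were counted as unchanged. For a ratio this meant staying inside the counting interval of its main value, and for the number past 1.5-fold staying within 1.5-fold. For calls and for members out of order it meant staying at 0. The tally is generous to the calls: the fits over all 4 files do not depend on the layout but were entered under both. Those fits also hold the duplicated library on both sides. In the 3-library fits, with 1 residual degree of freedom, staying at 0 calls says little of stability. All 8 values of miR-802 counted as unchanged because its interval is wide, although they ran from 0.494 to 1.60. With the replicate number as a block over all 4 files, limma called 0, with 0 at an unadjusted p under 0.05. That block is no real pairing, because the second pair is 1 library. Leaving out a library from the 3-library fits leaves no residual degrees of freedom, so no test was run there. Depth limits miR-802 most, at 4 to 9 reads, and then miR-33, at 56 to 98.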
